A study of Capra hircus with 9 samples.

Results

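The miR-23/27/24 clusters were described in goat mammary gland through the 9 mature miRNAs that they give rise to in the count table. Their members were taken by name, as every row starting with chi-miR-23a, chi-miR-23b, chi-miR-27a, chi-miR-27b or chi-miR-24-. These were 9 of the 1359 listed miRNAs, and all 9 were among the 696 that passed the filter on low counts. They comprised chi-miR-23a, listed without an arm and grouped below with the 3p members from general knowledge, and both arms of miR-23b (chi-miR-23b-3p and chi-miR-23b-5p), miR-24 (chi-miR-24-3p and chi-miR-24-5p), miR-27a (chi-miR-27a-3p and chi-miR-27a-5p) and miR-27b (chi-miR-27b-3p and chi-miR-27b-5p).

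Small RNA was sequenced from mammary tissue of 9 healthy Laoshan dairy goats of the third parity with a mean age of 4 years, kept on a single farm. Late lactation (LL) stood at 240 days after birth, the dry period (DP) at 300 days after birth and late gestation (LG) at 140 days after mating, with 3 goats and 3 libraries a stage. The tissue came from the same side of each udder and was not sorted, and each goat gave tissue at 1 stage only. The libraries held 13672653 to 34378995 counted reads, so that the floor of 3 counts lay between 0.0873 and 0.219 CPM, the counts of a miRNA scaled to a common library size. In such bulk tissue, fewer cells of a type and less RNA per cell cannot be told apart.

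In mammals, miR-23, miR-27 and miR-24 are cut from shared primary transcripts of paralogous clusters, called a and b. Each hairpin yields a guide strand, here the 3p arm, which is loaded onto Argonaute and represses mRNAs that match its seed, and a passenger 5p arm that is mostly degraded. miR-27 is known as a repressor of the adipogenic factor PPARG and miR-24 has been studied as a regulator of fatty acid synthase, both in the context of milk fat, while miR-23 and miR-27 are known for their role in blood vessel growth.

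In the RefSeq annotation of the goat assembly ARS1.2, the hairpins lay at separate places in the genome. MIR23A was at chr7:97226403-97226477 and MIR27A at chr7:97226578-97226660, with 100 bases between them, and both fell within the span of the protein-coding gene ZSWIM4. MIR23B was at chr8:81407779-81407865, MIR27B at chr8:81407996-81408099 and MIR24 at chr8:81408549-81408628, all within the span of the protein-coding gene C8H9orf3. The annotation used gives gene spans only, so that exon and intron were not assigned. It lists a single MIR24 entry, so that the mature miR-24 arms could not be assigned to cluster a or b. The mature miR-23a and miR-23b, and miR-27a and miR-27b, are nearly identical in sequence. How reads that fit both were counted is not given in the sources used here, and the separate values of these paralogs are uncertain to that extent. No member had the same counts as another listed miRNA in all libraries.

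**Figure D1:**
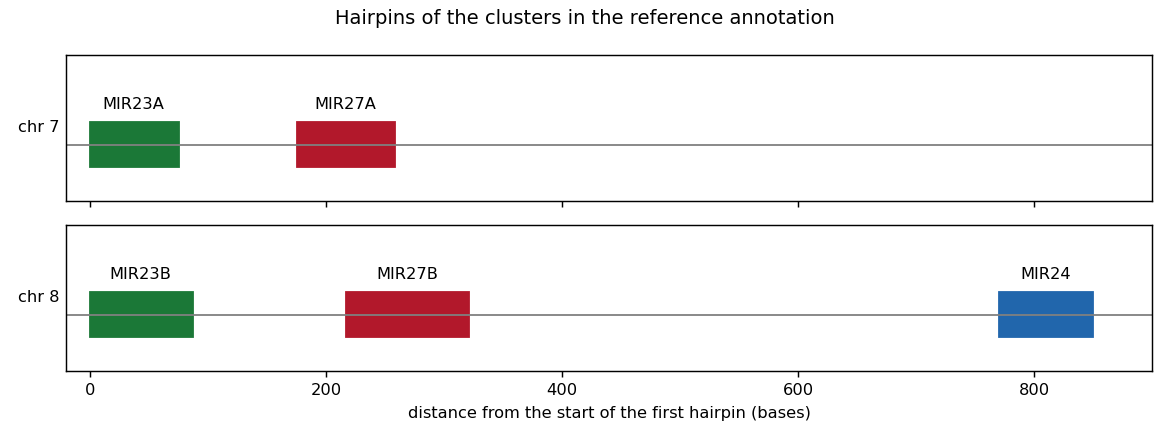
Hairpins of the miR-23/27/24 clusters, drawn to scale as bases from the start of the first hairpin on chromosome 7 (upper panel) and chromosome 8 (lower panel). MIR23A and MIR27A lie 100 bases apart, and MIR24 lies 449 bases after MIR27B.

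The mean share of the reads taken by the clusters was higher in DP than in the other stages, by an amount that depended on a single abundant miRNA. All 9 members together held 1.46%, 2.09% and 2.00% of the counts in the LL libraries, 2.51%, 4.47% and 6.19% in DP and 2.46%, 2.22% and 3.29% in LG. The means were 1.85 ± 0.336% in LL, 4.39 ± 1.84% in DP and 2.66 ± 0.557% in LG (SD, n = 3 each). Every DP library lay above every LL library, whereas DP replicate 1 lay below LG replicate 3. chi-miR-148a-3p, which is no member, held 48.4% to 59.4% of the counts in LL, 8.81% to 10.8% in DP and 39.4% to 44.6% in LG. Of the remaining counts, the 9 members held 3.97 ± 0.330% in LL, 4.84 ± 1.99% in DP and 4.60 ± 0.734% in LG (SD, n = 3 each). The stages then overlapped, with DP replicate 1 (2.81%) the lowest and DP replicate 3 (6.79%) the highest of all 9 libraries. A single member, chi-miR-27b-3p, held most of these reads, with 69.8 ± 1.18% of the members' counts in LL, 63.1 ± 4.09% in DP and 72.8 ± 1.99% in LG. By its mean CPM it ranked 13 of the 1359 listed miRNAs in LL, 9 in DP and 11 in LG. The other 3p members ranked between 28 and 55 in every stage and the 5p members between 176 and 465.

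The members' levels below are CPM with the library sizes scaled by the trimmed mean of M-values (TMM). Stages were compared by the quasi-likelihood test of edgeR, adjusted over all 696 miRNAs by Benjamini-Hochberg. Differentially expressed miRNAs (DE-miRNAs), called below, differed by more than 1 on the log2 scale in either direction at an adjusted p below 0.05. In DP vs. LG, 6 of the 9 members were called and all 6 were higher in DP, where 21.6% of all tested miRNAs were called higher and 9.91% lower. In DP vs. LL, 5 of 9 were called, all higher in DP, where 15.1% of all tested miRNAs were called higher and 11.6% lower. In LL vs. LG, 0 of 9 were called by edgeR, limma-voom or DESeq2, 0 had an unadjusted p under 0.05 in the edgeR fit of all 9 libraries, and the tools called 12.8%, 14.4% and 17.7% of all tested miRNAs, in the same order. DP vs. LG and DP vs. LL share the DP libraries and are not independent of each other. Nor are the 9 members, among them arms of the same hairpin and near-identical paralogs, so that their calls are not separate pieces of evidence.

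**Figure D2:**
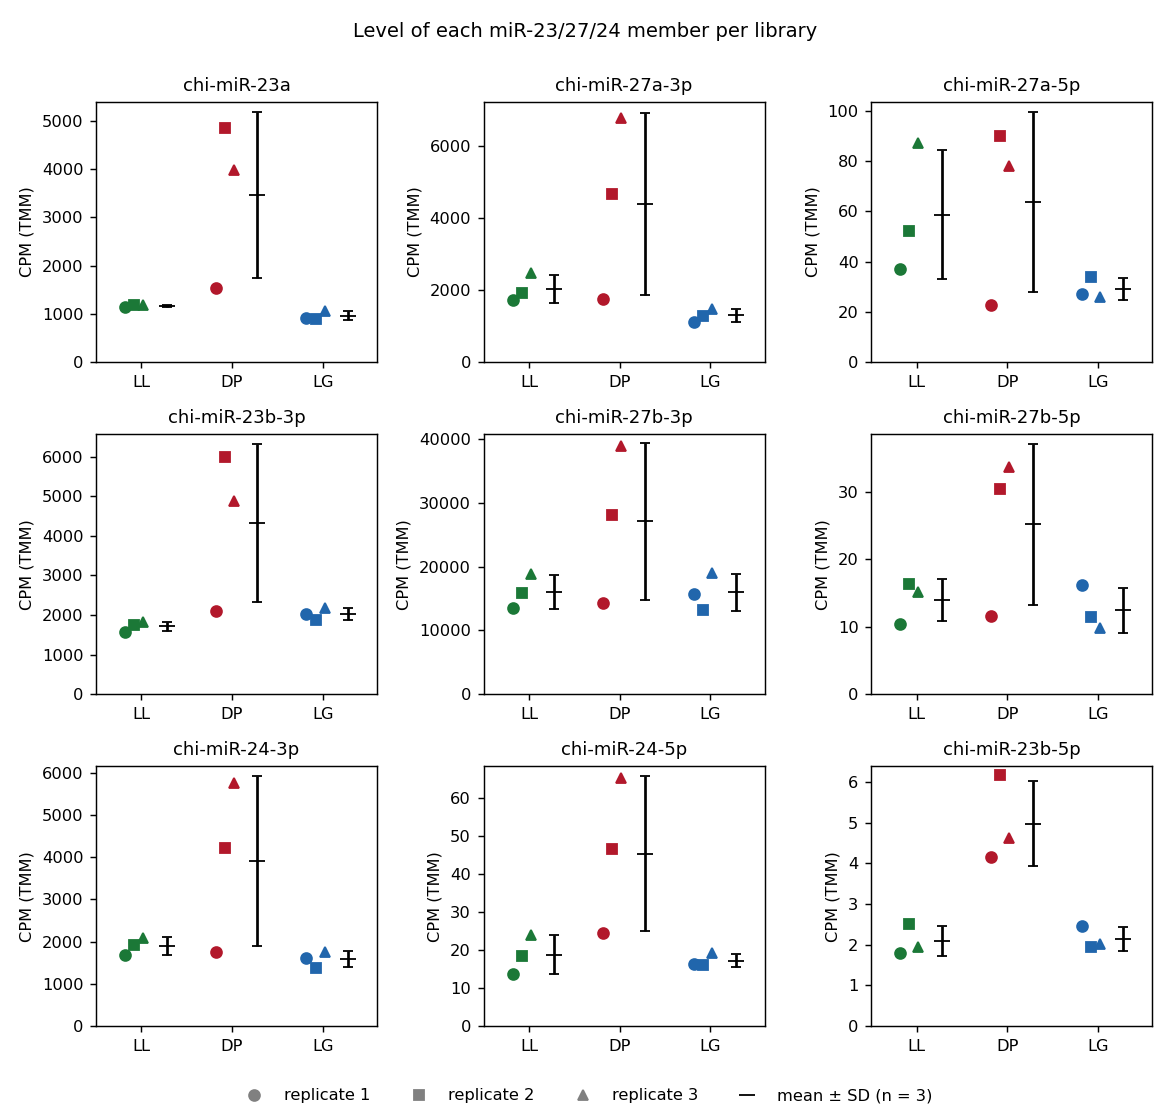
Level of each member in CPM (TMM) on a linear axis from 0, by stage, with each symbol a library and the bar the mean ± SD of 3 libraries. DP replicates 2 and 3 stand above all LL and LG libraries in 8 of the 9 panels, chi-miR-27a-5p being the exception, and DP replicate 1 is the lowest DP library in all 9.

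chi-miR-23a, the guide of the first hairpin of cluster a, had the largest difference of the members in both comparisons with DP. Its level was 1129.7, 1177 and 1175 CPM in LL, 1543, 4853 and 3978 CPM in DP and 905, 901 and 1062 CPM in LG. The 3 stages did not overlap, with all DP libraries highest and all LG libraries lowest. The spread was narrow in LL (1161 ± 26.8 CPM) and LG (956 ± 91.7 CPM) and wide in DP (3458 ± 1715 CPM), where replicate 1 stood apart from the others. The edgeR fit gave chi-miR-23a a log2 fold change in DP vs. LG of 1.85 (± 0.35 SE, edgeR adjusted p = 0.00240), and in DP vs. LL of 1.58 (± 0.35 SE, edgeR adjusted p = 0.00736). It was called in both comparisons under all 18 alternative settings, with log2 fold changes of 1.48 to 2.02 in DP vs. LG and 1.38 to 1.89 in DP vs. LL.

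chi-miR-27a-3p, the guide of the neighbouring hairpin of cluster a, had 1715, 1913 and 2475 CPM in LL. It had 1736, 4662 and 6780.5 CPM in DP and 1118, 1276 and 1482 CPM in LG. LG was lowest with no overlap with either stage, whereas DP replicate 1 lay among the LL libraries. In DP vs. LG it was called, with a log2 fold change of 1.77 (± 0.41 SE, edgeR adjusted p = 0.00720). The call was lost without LG replicate 1, where the log2 fold change was 1.61 (edgeR adjusted p = 0.0556), and held under 17 of 18 alternative settings. The lowest of these values was 1.12, without DP replicate 3 (edgeR adjusted p = 0.04999). In DP vs. LL the log2 fold change of 1.11 (± 0.40 SE, edgeR adjusted p = 0.0565) did not pass. It was called there under 3 of 18 alternative settings, namely DESeq2 (1.11, DESeq2 adjusted p = 0.0459), library size alone (1.44, edgeR adjusted p = 0.0153) and the fit without DP replicate 1 (edgeR adjusted p = 0.00203). Without DP replicate 3 the log2 fold change in DP vs. LL was 0.65.

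chi-miR-27a-5p, the passenger arm of the same hairpin, had a different distribution over the libraries. It had 37.0, 52.1 and 87.1 CPM in LL, 22.8, 90.2 and 78.3 CPM in DP and 26.96, 33.9 and 26.1 CPM in LG. DP replicate 1 was the lowest of all 9 libraries, while all LL libraries lay above all LG libraries. None of its log2 fold changes passed: 1.14 for DP vs. LG (± 0.48 SE, edgeR adjusted p = 0.0869), 0.12 for DP vs. LL (± 0.47 SE, edgeR adjusted p = 0.869) and 1.02 for LL vs. LG (± 0.48 SE, edgeR adjusted p = 0.165). Without DP replicate 1 it was called in DP vs. LG, at 1.35 (edgeR adjusted p = 0.00917).

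In cluster b, chi-miR-23b-3p had 1577, 1746 and 1813 CPM in LL, 2111, 6004 and 4881 CPM in DP and 2033, 1868 and 2172 CPM in LG. Here DP lay above all LL libraries, DP replicate 1 lay between LG replicates 1 and 3, and LL lay below all LG libraries. It was called in DP vs. LL, at a log2 fold change of 1.34 (± 0.32 SE, edgeR adjusted p = 0.0108), and under 16 of 18 alternative settings. In DP vs. LG the log2 fold change of 1.098 (± 0.32 SE, edgeR adjusted p = 0.0211) lay close to the limit on the fold and was called under 2 of 18 alternative settings, with values of 0.73 to 1.24. Its passenger, chi-miR-23b-5p, was the rarest member, with 23, 38 and 36 counts in LL, 66, 134 and 106 in DP and 72, 49 and 89 in LG. After scaling, DP (4.97 ± 1.05 CPM) lay above LL (2.09 ± 0.374 CPM) and LG (2.14 ± 0.288 CPM) with no overlap. The log2 fold changes of chi-miR-23b-5p were 1.22 in DP vs. LG (± 0.32 SE, edgeR adjusted p = 0.0135) and 1.25 in DP vs. LL (± 0.33 SE, edgeR adjusted p = 0.0153). It was called under 10 and 16 of 19 alternative settings, in the same order.

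chi-miR-27b-3p, the most abundant member, was not called in any comparison with TMM and all libraries. It had 13482, 15828 and 18822 CPM in LL, 14314, 28149 and 38978 CPM in DP and 15758, 13208 and 19059.7 CPM in LG. DP replicates 2 and 3 lay above every LL and LG library, and DP replicate 1 lay within both ranges. The log2 fold change was 0.76 in DP vs. LG (± 0.33 SE, edgeR adjusted p = 0.0918) and 0.76 in DP vs. LL (± 0.33 SE, edgeR adjusted p = 0.104). Over 18 alternative settings it ran from 0.21 to 0.88 in DP vs. LG and from 0.39 to 1.09 in DP vs. LL, lowest without DP replicate 3 in each. Of the alternative settings, library size alone gave a call in DP vs. LL (1.09, edgeR adjusted p = 0.0212). Its passenger, chi-miR-27b-5p, had 10.4 to 16.3 CPM in LL, 11.5, 30.4 and 33.6 CPM in DP and 9.74 to 16.1 CPM in LG. The log2 fold changes of chi-miR-27b-5p, 1.02 in DP vs. LG (± 0.41 SE, edgeR adjusted p = 0.0747) and 0.85 in DP vs. LL (± 0.41 SE, edgeR adjusted p = 0.141), did not pass either. chi-miR-27b-5p was called without DP replicate 1, in DP vs. LG at 1.18 (edgeR adjusted p = 0.0116) and in DP vs. LL at 1.08 (edgeR adjusted p = 0.0212), and with library size alone in DP vs. LL at 1.16 (edgeR adjusted p = 0.0468).

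chi-miR-24-3p had 1676, 1913 and 2096 CPM in LL, 1760.2, 4208 and 5761 CPM in DP and 1612, 1389 and 1756 CPM in LG. DP lay above all LG libraries, replicate 1 by a small margin, and DP replicate 1 lay among the LL libraries. It was called in DP vs. LG at a log2 fold change of 1.30 (± 0.36 SE, edgeR adjusted p = 0.0161), and under 8 of 19 alternative settings. In DP vs. LL the log2 fold change of 1.04 (± 0.35 SE, edgeR adjusted p = 0.0460) was called under 3 of 19. Without DP replicate 3 the log2 fold changes of chi-miR-24-3p were 0.72 in DP vs. LG and 0.65 in DP vs. LL. The passenger chi-miR-24-5p had 13.7, 18.5 and 24.1 CPM in LL, 24.5, 46.5 and 65.1 CPM in DP and 16.4, 16.0 and 19.2 CPM in LG. All DP libraries of chi-miR-24-5p lay above those of both other stages, with log2 fold changes of 1.40 in DP vs. LG (± 0.37 SE, edgeR adjusted p = 0.0140) and 1.27 in DP vs. LL (± 0.37 SE, edgeR adjusted p = 0.0260). It was called under 13 and 15 of 19 alternative settings.

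**Figure D3:**
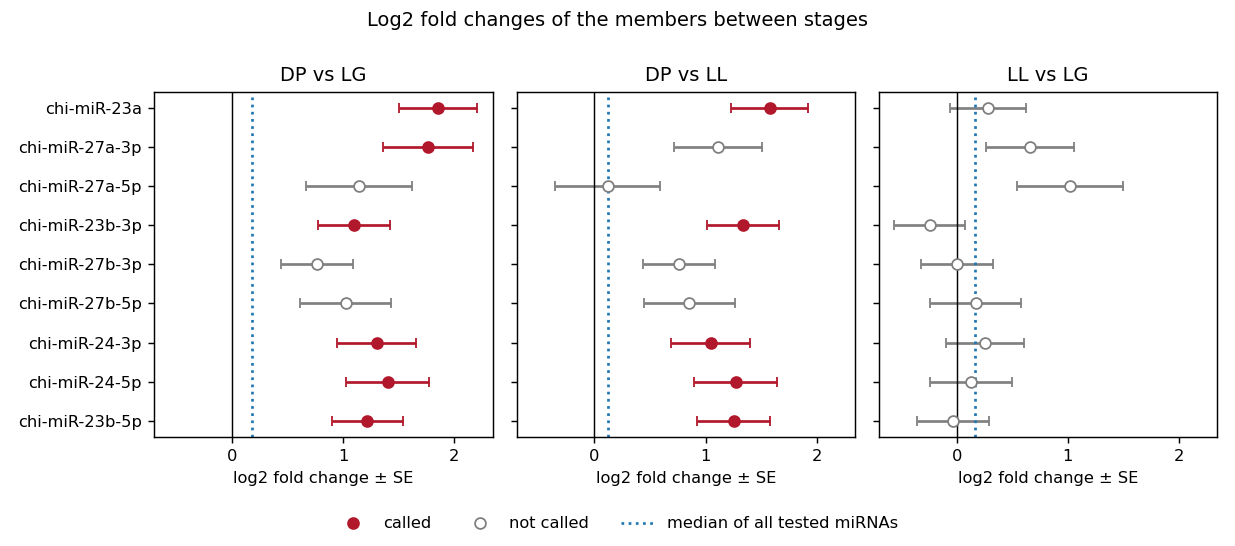
Log2 fold change ± SE of each member in DP vs. LG, DP vs. LL and LL vs. LG from edgeR, with filled points for called members and a dotted line at the median of all 696 tested miRNAs. All 9 points lie above the dotted line in DP vs. LG, where 6 are called, and none is called in LL vs. LG.

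Over the whole set, the 5 members whose DP libraries all lay above all LG libraries compare with 27.7% of all tested miRNAs, and the 4 above all LL libraries with 21.0%. Scaled by library size alone, these counts were 4 (against 160 of the 696 tested miRNAs) and 7 (against 31.8%). The median log2 fold change of the 9 members was 1.22 in DP vs. LG and 1.11 in DP vs. LL, against 0.18 and 0.12 over all tested miRNAs. The 5 3p members, chi-miR-23a among them, had medians of 1.30 and 1.11 and the 4 5p members of 1.18 and 1.05, in the same order. Scaling by library size alone moved the median of all tested miRNAs to −0.02 for DP vs. LG, to 0.49 for DP vs. LL and to −0.42 for LL vs. LG. The members' median less that of all tested miRNAs lay between 1.01 and 1.05 in DP vs. LG and between 0.95 and 1.02 in DP vs. LL over 5 scalings. A change of scaling moves all miRNAs by a similar amount, so that this difference could vary little by its construction.

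The number of calls depended on individual libraries, and the share of all tested miRNAs called higher in DP changed with them. In DP vs. LG, 1 member (chi-miR-23a) was called without LG replicate 1, where 13.7% of all tested miRNAs were called higher. The calls were 2, chi-miR-23a and chi-miR-27a-3p in each case, without DP replicate 2 (16.2% of all tested), DP replicate 3 (15.8%), LG replicate 2 (13.7%) or LG replicate 3 (12.7%). Without DP replicate 1 there were 8, against 19.5%. For DP vs. LL, leaving out LL replicate 1 left 1 call (8.85% of all tested), LL replicate 2 left 2 (9.32%), and LL replicate 3 (11.8%) or DP replicate 3 (13.9%) left 3. Leaving out DP replicate 1 gave 7, against 12.2%. With library size alone, 4 members were called in DP vs. LG, where 16.7% of all tested miRNAs were called higher and 12.2% lower, and 8 in DP vs. LL, where 23.7% were called higher and 8.48% lower. For the 9 members, every log2 fold change was positive in DP vs. LG under every alternative setting, and in DP vs. LL for all but chi-miR-27a-5p.

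LL vs. LG compares the end of a lactation with the end of gestation, and no member passed in it. The log2 fold changes in LL vs. LG ran from −0.24 for chi-miR-23b-3p (± 0.32 SE, edgeR adjusted p = 0.682) to 1.02 for chi-miR-27a-5p. The directions of 5 members in LL vs. LG depended on the scaling. With TMM, all LL libraries lay above all LG libraries for 3 members (chi-miR-23a, chi-miR-27a-3p and chi-miR-27a-5p; 31.0% of all tested miRNAs) and below them for chi-miR-23b-3p (17.4%). With library size alone, 0 members lay wholly above (10.1%) and 3 wholly below (chi-miR-23b-3p, chi-miR-24-5p and chi-miR-27b-3p; 36.9%). The log2 fold changes of 5 members then turned below 0, from 0.28 to −0.31 for chi-miR-23a, 0.26 to −0.33 for chi-miR-24-3p, 0.13 to −0.46 for chi-miR-24-5p, 0.00316 to −0.59 for chi-miR-27b-3p and 0.17 to −0.38 for chi-miR-27b-5p. None of these 5 passed under either scaling (edgeR adjusted p from 0.230 to 0.534 with library size alone). An adjusted p below 0.05, with a fold change under the limit, arose for chi-miR-23b-3p with only LL and LG in the fit (−0.46, edgeR adjusted p = 0.0247) and for chi-miR-27a-5p without DP replicate 1 (0.94, edgeR adjusted p = 0.0467).

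Ratios between members of a library do not depend on how libraries are scaled, and 9 of them were tested over the 3 stages. The exact permutation test of the F statistic went over all 280 splits into 3 groups of 3 and can give no p below 0.00357. Adjusted values are Benjamini-Hochberg over the 9 ratios.

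The balance of the paralogs differed between stages for both guide strands. chi-miR-23b-3p exceeded chi-miR-23a 1.40-, 1.48- and 1.54-fold in LL, 1.37-, 1.24- and 1.23-fold in DP and 2.25-, 2.07- and 2.05-fold in LG. The 3 stages did not overlap, with LG highest and DP lowest. On the log2 scale the ratio was 0.56 ± 0.07 in LL, 0.35 ± 0.09 in DP and 1.08 ± 0.07 in LG (SD, n = 3; exact permutation p = 0.00357, adjusted p = 0.0321), the smallest p this test allows. Without LL replicate 1, LL replicate 2, LL replicate 3 or DP replicate 2 the adjusted p was 0.0643 (exact permutation test, n = 2 in that stage), with LG 0.71 to 0.73 above DP.

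chi-miR-27b-3p exceeded chi-miR-27a-3p 7.86-, 8.27- and 7.60-fold in LL, 8.25-, 6.04- and 5.75-fold in DP and 14.1-, 10.3- and 12.9-fold in LG. Every LG library lay above all others, and LL and DP overlapped. The log2 ratio was 2.98 ± 0.06 in LL, 2.72 ± 0.28 in DP and 3.62 ± 0.23 in LG (SD, n = 3; exact permutation p = 0.0107, adjusted p = 0.0482). LG thus stood highest for both guide pairs. Without LL replicate 1, 2 or 3, DP replicate 2 or 3, or LG replicate 1 the adjusted p of this ratio rose to between 0.0563 and 0.0964 (exact permutation test, n = 2 in that stage). For the passenger arms, chi-miR-27b-5p was less abundant than chi-miR-27a-5p in every library, at 0.173- to 0.597-fold, and the 3 stages did not differ past the threshold (exact permutation adjusted p = 0.161, n = 3).

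**Figure D4:**
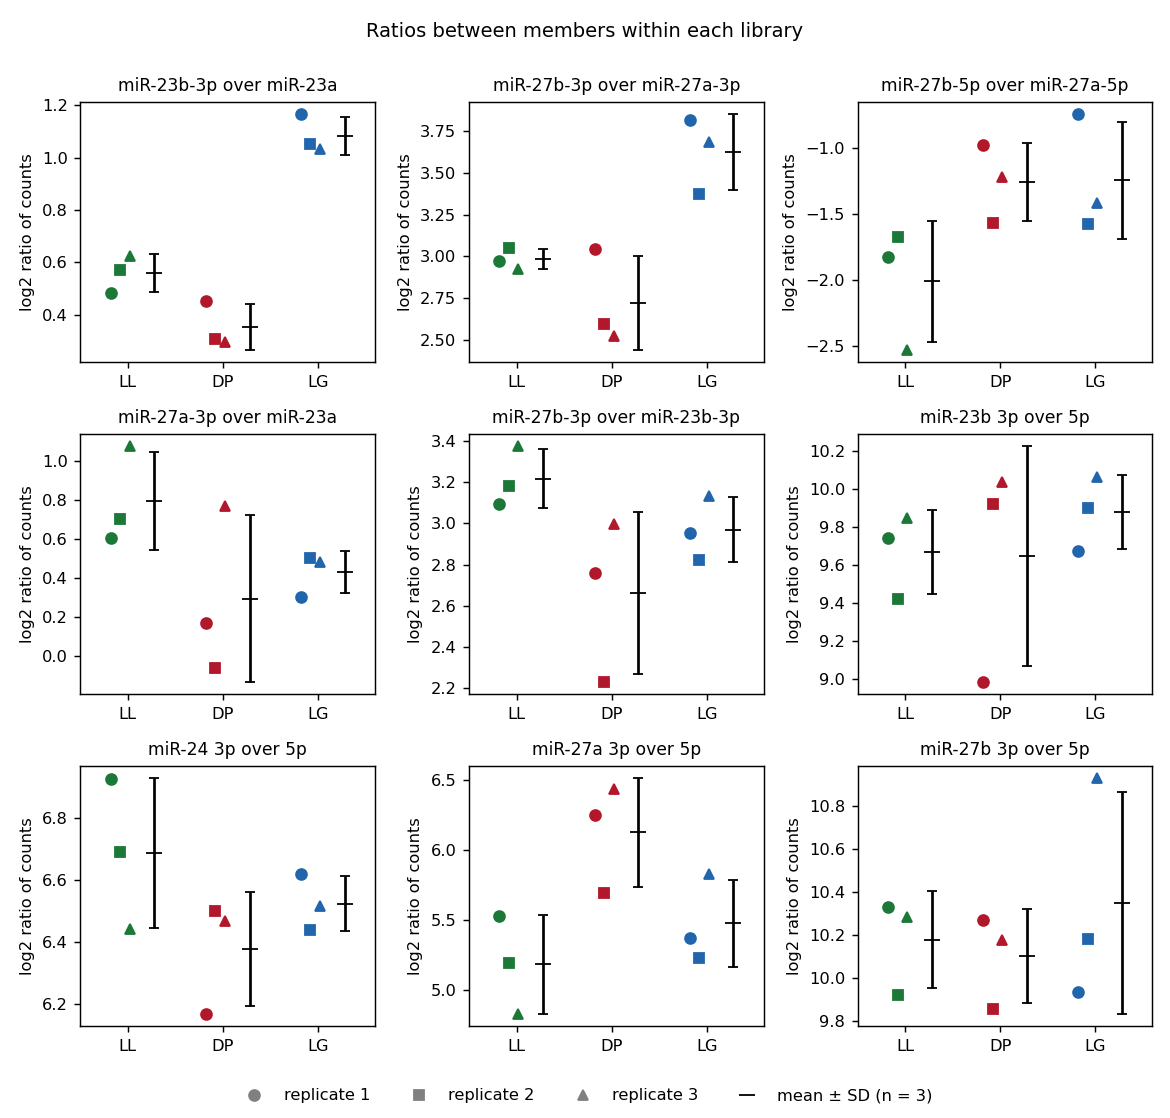
Log2 ratio of counts (pseudocount 0.5) between members within each library, by stage, with each symbol a library and the bar the mean ± SD of 3 libraries; the axes do not start at 0. In the first 2 panels the LG libraries lie above all others, at 1.03 to 1.17 for miR-23b-3p over miR-23a and 3.37 to 3.82 for miR-27b-3p over miR-27a-3p.

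Within cluster a, chi-miR-27a-3p relative to chi-miR-23a was 1.52 to 2.11-fold in LL, 0.961 to 1.70-fold in DP and 1.24 to 1.42-fold in LG (exact permutation adjusted p = 0.262, n = 3). In cluster b, chi-miR-27b-3p relative to chi-miR-23b-3p was 8.55 to 10.4-fold in LL, 4.69 to 7.99-fold in DP and 7.07 to 8.78-fold in LG (exact permutation adjusted p = 0.129, n = 3). LL held the highest mean in both clusters, but neither ratio passed. Both passed without DP replicate 3, with LL 0.74 and 0.72 above DP on the log2 scale (exact permutation adjusted p = 0.0214 for each, n = 2 in DP).

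The guide arm exceeded the passenger arm in every library. On geometric means over LL, DP and LG, chi-miR-23b-3p exceeded its 5p arm 814-, 802- and 942-fold, chi-miR-24-3p 103-, 83.2- and 92.0-fold, and chi-miR-27b-3p 1158-, 1099- and 1304-fold. chi-miR-27a had the smallest excess, at 36.4-, 69.8- and 44.6-fold. For miR-27a all DP libraries (51.7- to 86.6-fold) lay above all LL libraries (28.4- to 46.3-fold). The exact permutation test of the arm ratios gave adjusted p = 0.129 for miR-27a, 0.262 for miR-24 and 0.796 for miR-23b and miR-27b (n = 3), so that no difference in the use of the arms passed.

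When the reads of each near-identical pair were summed and refitted, the miR-23 guides were called in DP vs. LG at a log2 fold change of 1.28 (edgeR adjusted p = 0.0215) and in DP vs. LL at 1.51 (edgeR adjusted p = 0.0106). The summed miR-27 guides were not called, at 0.79 (adjusted p = 0.132) and 0.90 (edgeR adjusted p = 0.0909). The sums do not depend on a split of shared reads between paralogs, but reads counted on both would enter them repeatedly.

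The levels of the members followed each other over the 9 libraries, with Pearson's r of log2 CPM between 0.38 (chi-miR-23b-5p with chi-miR-27a-5p) and 0.97 (chi-miR-24-3p with chi-miR-27a-3p). The 9 libraries are 3 goats of each stage, so that these values mix stage and goat and are given as a description. Among 296 other miRNAs whose mean was 10 CPM or more, those most like the mean of the 5 3p members were chi-miR-99b-5p (r = 0.980), chi-miR-126-3p (r = 0.936), chi-miR-504 (r = 0.935), chi-miR-100-5p (r = 0.927) and chi-miR-214-5p (r = 0.925). With library size alone as the scaling these 5 were again the closest, at 0.926 to 0.986. Their mean levels in DP were 1379 ± 677 CPM for chi-miR-99b-5p, 26062 ± 6600.3 CPM for chi-miR-126-3p, 69.6 ± 36.8 CPM for chi-miR-504, 10306 ± 3837 CPM for chi-miR-100-5p and 84.7 ± 32.2 CPM for chi-miR-214-5p.

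**Figure D5:**
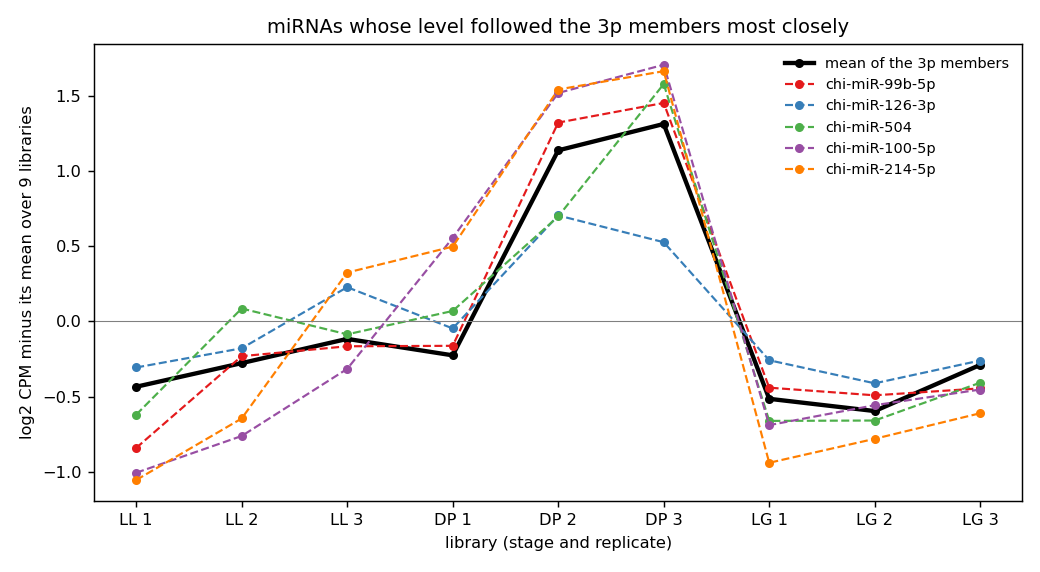
Log2 CPM (TMM) minus the mean over the 9 libraries, for the mean of the 5 3p members (solid line) and the 5 miRNAs with the highest correlation to it (dashed lines); lines only join the values of a miRNA, since replicates have no order. The 3p members stood at 1.14 and 1.31 in DP replicates 2 and 3 and at −0.23 in DP replicate 1, among the LL values of −0.43 to −0.12.

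Marker miRNAs of several cell types differed between the same libraries. Their calls are to be read against the 21.6% of all tested miRNAs called higher and 9.91% lower in DP vs. LG, and the 15.1% and 11.6% in DP vs. LL. The 3 listed stromal miRNAs (chi-miR-199a-3p, chi-miR-199a-5p and chi-miR-214-3p) were all called higher in DP in both comparisons. Their summed level was 17233 to 29852 CPM in DP, 4831 to 10438 CPM in LL and 4384 to 4961 CPM in LG, and DP replicate 1 was the lowest of DP. The endothelial pair chi-miR-126-3p and chi-miR-126-5p summed to 15853 to 22980.0 CPM in LL and 14716 to 16363 CPM in LG. It reached 19028 CPM in DP replicate 1, 31975 in DP replicate 2 and 28312 in DP replicate 3, so that DP replicate 1 lay within LL for the pair as it did for 3 of the 5 3p members. Only chi-miR-126-5p was called, in DP vs. LG.

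Of the 6 epithelial markers of the miR-200 family and miR-205, 5 were in the table under the listed names. Their sum was 13064 to 20811 CPM in DP, 34893 to 42110 CPM in LL and 34218 to 37559 CPM in LG, with 3 of 5 called lower in DP vs. LG and 5 of 5 in DP vs. LL. Among 4 skeletal muscle markers, 2 were called higher in DP vs. LG and 1 in DP vs. LL, with sums of 907 and 1014 CPM in DP replicates 1 and 2, 3400.1 CPM in DP replicate 3, 672 to 879 CPM in LL and 383 to 495 CPM in LG. Of 5 immune markers, 3 were in the table. All 3 were called higher in DP vs. LG and chi-miR-150 in DP vs. LL, where chi-miR-223-3p had a log2 fold change of −1.06 (edgeR adjusted p = 0.176), at sums of 767 to 1935 CPM in DP, 581 to 740.4 CPM in LL and 243 to 360.1 CPM in LG.

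Among 3 red blood cell markers, chi-miR-451-5p was called higher in DP vs. LG, with sums of 122 to 1284 CPM in DP, 364 to 551 CPM in LL and 87.1 to 168 CPM in LG. The smooth muscle and myoepithelial pair summed to 30282, 40869 and 122725 CPM in DP, 70835 to 115284 CPM in LL and 52672 to 61217 CPM in LG. DP replicates 1 and 2 thus lay below every LL and LG library and DP replicate 3 above all of them. DP replicate 3 was also the highest library for chi-miR-24-3p, chi-miR-27a-3p and chi-miR-27b-3p. Neither passed in DP vs. LG, where chi-miR-143-3p had a log2 fold change of 0.14 (edgeR adjusted p = 0.832) and chi-miR-145-5p of 0.40 (edgeR adjusted p = 0.555), nor in DP vs. LL, where the values were −0.43 (edgeR adjusted p = 0.499) and −0.71 (edgeR adjusted p = 0.252). No marker found in the table was at 0 in all libraries. The part of these cell types in the members' levels was not tested.

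Other miRNAs studied as regulators of milk fat did not share a direction. Of 12 listed, all tested, 2 were called higher and 3 lower in DP vs. LG, and 3 higher and 4 lower in DP vs. LL. Over all tested miRNAs, 21.6% were called higher and 9.91% lower in DP vs. LG, and 15.1% and 11.6% in DP vs. LL. chi-miR-26a-5p rose from 32072 ± 983 CPM in LG and 39052 ± 4566 CPM in LL to 84001 ± 46479 CPM in DP, which in DP vs. LG gave a log2 fold change of 1.39 (± 0.33 SE, edgeR adjusted p = 0.00769). In unscaled counts DP replicate 2 stood apart, with 2991684 against 974286 and 1223882 in DP replicates 1 and 3. chi-miR-148a-3p, the most abundant miRNA of LL, fell by 1.93 on the log2 scale in DP vs. LG and by 2.87 in DP vs. LL (adjusted p = 0.000159 and 2.49e-05 from edgeR). chi-miR-200a, also an epithelial marker, and chi-miR-30e-5p were lower in DP in both comparisons. chi-miR-103-3p was called lower in DP vs. LL (log2 fold change −1.57, edgeR adjusted p = 0.000386) but not in DP vs. LG (−0.15, edgeR adjusted p = 0.628). The remaining calls were higher in DP, for chi-miR-26b-5p in DP vs. LG and for chi-miR-26a-5p, chi-miR-130b-3p and chi-miR-183 in DP vs. LL. With the reads of chi-miR-148a-3p dropped from every library, 3 of the 9 cluster members were called in DP vs. LG (chi-miR-23a, chi-miR-24-5p and chi-miR-27a-3p), against 16.2% of all tested miRNAs called higher, and 4 in DP vs. LL, against 11.6%.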

How the data were processed

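Small RNA of 18 to 30 nt from mammary tissue was sequenced in 9 libraries, 3 each of LL, DP and LG. According to the methods and the submitters' processing notes, the authors checked the reads (FastQC 0.11.9), trimmed adapters (cutadapt 4.2 in the notes, Trimmomatic in the methods), mapped them with Bowtie 1.1.1 and miRDeep2 to the goat assembly ARS1.2, and counted reads per miRBase and predicted mature miRNA with the miRDeep2 quantifier. The deposited values were read as raw counts, not normalized. In the deposited column of LL replicate 3, 2 values were not whole, so it was handled as estimated counts and rounded.

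The 696 of 1359 miRNAs that reached 0.5 CPM in 3 or more libraries were fitted in 1 model of the 3 stages with edgeR 4.0.16 (R 4.3.3, quasi-likelihood test, TMM, Benjamini-Hochberg). The fold limit and the adjusted p followed the study, which filtered on FPKM rather than CPM. Other settings were library size or upper quartile scaling, DESeq2 1.42.0, limma 3.58.1 (voom), chi-miR-148a-3p dropped, the filter omitted or raised to 10 counts in each library, the stages compared alone, a replicate block, summed paralogs and each library left out. A prior count of 2 was used for log2 CPM and a pseudocount of 0.5 (alternative 1) for ratios. The fit was tested on simulated data.

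The text names all rows of the clusters, some members of the milk fat and cell marker lists, and the 5 miRNAs of at least 10 CPM most correlated with the 3p members. Calls were counted over every tested member of the lists. miRNAs of the same seed were not searched, since mature sequences were not used here. The members and lists were chosen with earlier results of these data known. Library totals of 13672653 to 34378995 reads set the precision of counting, and no limits for counting error were computed. PCR copies were not marked by molecular identifiers. Each library came from a separate goat.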

Additional observations from a re-analysis of the deposited data

How the results depend on the processing

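All log2 fold changes of the members stayed positive in DP vs. LG under every alternative. In LL vs. LG, where no call was made, 4 of the 9 directions held under every alternative, positive for chi-miR-27a-3p and chi-miR-27a-5p and negative for chi-miR-23b-3p and chi-miR-23b-5p. Of the others, all positive with TMM and all libraries, chi-miR-24-3p stayed positive under 16 of 19 alternatives, chi-miR-24-5p under 4 of 19, chi-miR-27b-3p under 1 of 18, chi-miR-27b-5p under 6 of 19 and chi-miR-23a under 16 of 18. In DP vs. LG the count of members called was 6, with 21.6% of all tested miRNAs called higher in DP. It became 3 with chi-miR-148a-3p left out (16.2% called higher), 2 without a filter (7.98%) and 3 with at least 10 counts in every library (92 of 483 tested). When a library was left out it ranged from 1 to 8, against 12.7% to 19.5%. It was 5 with DESeq2 (18.2%), limma-voom (19.8%) or only the stages compared (20.2%). With library size alone it was 4 (16.7%), with a replicate block 6 (21.1%), and with upper quartile scaling 5, with no share counted for the last. In DP vs. LL the count of 5 became 8 with library size alone (23.7% called higher, against 15.1% before) and 2 with only the stages compared in the fit (9.65%), and ranged from 1 to 7 when a library was left out, and was 4 or 6 under the other settings. The cause was not tested. With the reads of chi-miR-148a-3p taken off the library totals, an alternative chosen after seeing the data, the members' mean share of the counts became 3.97% in LL, 4.84% in DP and 4.60% in LG.

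When a library was left out, LG minus DP in the log2 ratio of miR-23b-3p over miR-23a ranged from 0.69 to 0.78 (exact permutation adjusted p from 0.0161 to 0.0643), and that of miR-27b-3p over miR-27a-3p from 0.81 to 1.07 (0.0161 to 0.0964). LL minus DP ranged from 0.32 to 0.74 for miR-27a-3p over miR-23a and from 0.34 to 0.72 for miR-27b-3p over miR-23b-3p. LG minus DP in the 3p over 5p ratio reversed to −0.10 for miR-23b without DP replicate 1, over a range up to 0.43, and to −0.045 for miR-27b without LG replicate 3, over a range up to 0.45. None of these arm ratios passed the threshold. chi-miR-27a-5p in DP vs. LL turned from 0.12 to −0.0054 with limma-voom, −0.00070 with only the stages compared in the fit, −0.043 without DP replicate 2 and −0.029 without DP replicate 3 (up to 0.55 without LL replicate 3), and chi-miR-23a in LL vs. LG from 0.28 to −0.31 with library size alone and −0.027 without a filter. Neither was past the threshold.

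Replicate numbers are shared by the stages but do not pair the goats. Deviations from the stage means correlated at −0.10 to 0.21 between same-numbered libraries and at −0.23 to 0.15 between libraries of different numbers. Among the same-numbered libraries only LL replicate 2 with LG replicate 2 was negative (−0.10), and LL replicate 2 correlated best with LG replicate 1 (0.11). Same-numbered libraries thus leaned towards positive values, and whether a number marks a shared step was not tested. With the replicate number as a block, 6 members were called in DP vs. LG (21.1% of all tested miRNAs called higher) and 4 in DP vs. LL (12.2%), where chi-miR-24-3p was lost at a log2 fold change of 0.95 (adjusted p = 0.0501 from edgeR). No block was run for the ratios. With 3 goats a stage, DP replicate 1 decides much of the spread in DP, and passenger arms of 23 to 134 counts (chi-miR-23b-5p) carry a larger relative counting error than the guides.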
